A study of Mus musculus with 8 samples.

Results

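The 9 genes *Spo11*, *Mei1*, *Mei4*, *Rec114*, *Prdm9*, *Dmc1*, *Meiob*, *Spata22* and *Psmc3ip* make the programmed DNA breaks of meiosis and carry the broken ends into the homologous chromosome. They were found by gene name among the 54532 genes of the deposited expression table, and all 9 were present under 1 identifier each. Spermatocytes of 2 stages, leptotene or zygotene (L/Z) and pachytene (P), came from testes of C57BL/6J mice at postnatal day (PD) 24 and PD 52. MFN2 WT mice had the genotype Mfn2 loxp/loxp and MFN2 cKO mice the genotype Mfn2 loxp/loxp with Stra8-Cre, so both carried the floxed allele and only the cKO mice carried the Cre. The authors' methods describe the WT controls of the study more widely, as Mfn2 fl/fl or Mfn2 fl/+. Cre under the *Stra8* promoter acts from early spermatogonia onward and removes exon 6 of *Mfn2*, which encodes a protein of mitochondrial fusion. Cells were separated by sedimentation through a BSA gradient and judged by size and shape, and the number of mice behind a library is not given in the sources used here. Each combination of stage, genotype and age was 1 RNA-seq library, 8 in all, so the libraries formed 4 pairs for each comparison and no single group was replicated.

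Meiotic recombination begins in leptotene, when SPO11 cuts both strands of the DNA together with its partner TOPOVIBL. MEI1, MEI4, REC114 and IHO1 assemble on chromosome axes and are needed for the cutting, and PRDM9, a zinc finger methyltransferase, marks the sites in mice. The ends are resected to single strands, on which the meiotic recombinase DMC1 polymerises. MEIOB and its partner SPATA22 bind the single strands together with RPA, and the heterodimer of HOP2 (encoded by *Psmc3ip*) and MND1 helps DMC1 to invade the homologue. Breaks are made and strands invade mainly in leptotene and zygotene, and repair is completed during pachytene.

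Transcript levels are given in FPKM as the authors deposited them, fragments scaled for gene length and by a factor for each library. Fragments were recovered from the FPKM and are called reads. The factors followed the median of ratios of the reads between libraries and not the total of reads on genes. Reads scaled to the library carry the same factors. The libraries held between 14340665 and 20379950 reads on genes. *Mfn2* was at 62.2 to 97.5 FPKM in the 4 MFN2 WT libraries and at 34.3 to 50.1 FPKM in the 4 MFN2 cKO libraries, so the targeted gene followed the labels. Scaled to the library, its reads were 2.39-fold (L/Z, PD 24), 1.95-fold (P, PD 24) and 2.04-fold (L/Z, PD 52) lower in cKO. In the P pair at PD 52 they were only 1.24-fold lower. Of 12 genes listed for the pachytene stage, 5 were higher in every P library than in any L/Z library, among them *Piwil1* and *Tdrd5* of the piRNA pathway and the germ cell factor *Pou5f2* (*Pou5f2*, 44.2 to 63.3 against 3.78 to 4.37 FPKM). On the same list *Ccna1*, a cyclin of meiosis, and *Spag6* went the other way and were lower in P in 4 of 4 pairs. Of 12 genes listed for leptotene and zygotene, *Smc1b*, a meiotic cohesin, was higher in every L/Z library (62.8 to 81.2 FPKM) than in any P library (37.8 to 58.5 FPKM), and *Rad21l* and *Syce2* were higher in L/Z in 4 of 4 pairs. *Sycp2*, of the chromosome axis, was higher in every P library. Its partner *Sycp3* was at 26.5 to 63.3 FPKM in L/Z and at 56.1 to 69.5 FPKM in P. On this list 4 genes (*Hormad1*, *Sycp2*, *Sycp3* and *Tex101*) were higher in P in 4 of 4 pairs, and 3 (*Smc1b*, *Rad21l* and *Syce2*) were lower. The summed FPKM of the list was 395 to 515 in L/Z and 481 to 643 in P, higher in P in each pair. *Stra8*, the meiotic initiator, was highest in the L/Z libraries at PD 24 (28.4 FPKM in WT and 23.8 FPKM in cKO) and lowest in the L/Z library of MFN2 cKO at PD 52 (5.50 FPKM). Summed over 12 spermatid genes, the L/Z libraries at PD 52 held 11001 FPKM in WT and 20102 FPKM in cKO, against 557 to 2669 FPKM in the L/Z libraries at PD 24 and 257 to 4972 FPKM in the P libraries. The defining protamine genes *Prm1* and *Prm2* were present in every library, from 3.30 and 3.07 FPKM upward. In such mixed samples a smaller share of a cell type cannot be told apart from less RNA of a gene per cell. The summed genes of Sertoli cells were at 4.45 to 50.4 FPKM in L/Z and 39.0 to 148 FPKM in P, those of Leydig cells at 27.5 to 206 FPKM in L/Z and 19.7 to 641 FPKM in P, those of macrophages at 19.5 to 156 FPKM in L/Z and 4.69 to 39.5 FPKM in P, and those of peritubular myoid cells at 46.5 to 160 FPKM in L/Z and 5.11 to 32.5 FPKM in P. The part of these cells in the results below was not tested.

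The sequences below are shown because they bear on what the gene-level values can and cannot resolve, and on what the genes with a shared pattern have upstream of their starts. *Spo11* has 3 protein-coding transcripts in GENCODE mouse release M21. Exon 2 of the transcript with 13 exons (chr2:172981979-172982092, GRCm38, forward strand) is 114 bases long, wholly coding, holds 38 codons and is absent from the other 2 coding transcripts, which have 12 exons each. The form with this exon is known as SPO11β and the form without it as SPO11α, of which β is the form of early prophase and α appears later. The deposited table gives 1 value per gene, so the values of *Spo11* sum both forms.
Spo11 exon 2: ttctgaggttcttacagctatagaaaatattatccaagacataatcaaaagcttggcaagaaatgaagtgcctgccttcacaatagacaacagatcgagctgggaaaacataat

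Promoter windows of RefSeq on GRCm38.p6 were found for 7 of the 9 genes (*Mei1*, *Mei4*, *Rec114*, *Prdm9*, *Dmc1*, *Spata22* and *Psmc3ip*), with 2 windows for *Prdm9*. The 250 bases upstream of the start were searched on both strands for CACGTG (the E-box bound by MAX and MGA), CNCCTCAG (given for STRA8), TAACNG (MYB), TGACGTCA (the cAMP response element) and GCGGGAA (E2F). These letters were found upstream in 6.02%, 6.42%, 19.8%, 1.55% and 3.82% of all 32851 windows. Capitals mark the matches. *Prdm9* held CCCCTCAG beginning 41 bases before its start and, 1 base of it shared, the reverse of the E2F letters beginning 47 bases before the start (chr17:15564355-15564604, reverse strand). *Rec114* held the E-box, beginning 19 bases before its start (chr9:58741560-58741809, reverse strand). *Dmc1* held none of the 5 (chr15:79605110-79605359, reverse strand).
Prdm9 upstream: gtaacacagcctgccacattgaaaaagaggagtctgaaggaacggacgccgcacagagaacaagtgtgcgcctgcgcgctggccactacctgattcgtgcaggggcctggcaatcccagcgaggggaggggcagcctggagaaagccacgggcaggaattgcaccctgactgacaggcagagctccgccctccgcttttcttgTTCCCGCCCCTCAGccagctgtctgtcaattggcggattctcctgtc
Dmc1 upstream: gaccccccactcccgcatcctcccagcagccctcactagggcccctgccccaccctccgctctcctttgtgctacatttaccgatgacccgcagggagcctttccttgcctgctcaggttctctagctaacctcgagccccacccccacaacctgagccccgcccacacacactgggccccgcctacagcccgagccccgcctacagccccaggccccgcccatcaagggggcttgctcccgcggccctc
Rec114 upstream: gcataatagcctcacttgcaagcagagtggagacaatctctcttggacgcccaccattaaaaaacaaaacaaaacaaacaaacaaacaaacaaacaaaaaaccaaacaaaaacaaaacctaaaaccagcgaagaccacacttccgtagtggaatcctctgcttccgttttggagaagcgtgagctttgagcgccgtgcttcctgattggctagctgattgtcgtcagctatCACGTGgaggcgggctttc

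The MYB letters were found upstream of *Mei4* (TAACCG, 124 bases before the start) and *Psmc3ip* (TAACAG, 210 bases before the start). *Spata22* held the E2F letters across its start, beginning 4 bases before it, and *Mei1* held none of the 5. The upstream bases of the windows had a GC content from 45.2% in *Rec114* to 68.8% in *Dmc1*. No match was common to *Mei1*, *Mei4*, *Prdm9* and *Dmc1*, whose levels ran together over the libraries. The windows of *Mei1* (chr15:82082226-82082475, forward strand) and *Rec114* lie inside the spans that the table gives for these genes, so the starts used by RefSeq and by the table differ there. The same holds for the other window of *Prdm9* (chr17:15563332-15563581, reverse strand), which held none of the 5.

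Between stages the genes divided. On the scale of log2(FPKM + 1) and over the 4 pairs of the same genotype and age, *Spo11*, *Meiob* and *Spata22* were higher in P than in L/Z spermatocytes and *Dmc1* was lower, at an adjusted p under 0.05 in limma. These were 4 of the 8 genes that could be tested, 3 higher and 1 lower. Among all 21175 genes tested 28.4% passed in either direction, 12.4% higher and 16.0% lower, so the stages differed widely and the count is to be read against that share. The median difference of the 8 genes was -0.01 and that of all genes tested -0.04. *Spo11* alone of the 8 had all 4 P libraries above all 4 L/Z libraries, and 15.7% of all genes tested had no overlap between the stages in either direction. *Mei4* stayed below 1 FPKM in every library and was not tested.

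*Spo11* (ENSMUSG00000005883, chr2:172977700-172993576, forward strand) encodes the enzyme that makes the breaks. In the L/Z libraries it was at 10.5 FPKM in MFN2 WT at PD 24, 8.51 in cKO at PD 24, 14.8 in WT at PD 52 and 4.55 in cKO at PD 52. In the P libraries, in the same order, it was at 25.8, 20.7, 25.8 and 17.3 FPKM. Every P library lay above every L/Z library, and the L/Z library of MFN2 cKO at PD 52 was the lowest of all. The P minus L/Z difference was 1.22 (SE 0.18, 95% interval 0.79 to 1.65, limma adjusted p = 0.00502), with scaled reads 1.74-fold to 3.79-fold higher in the single pairs. The values rest on 261 to 2041 reads per library.

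*Mei1* (ENSMUSG00000068117, chr15:82069996-82126814, forward strand) encodes a factor that is needed for break formation. It was at 7.31, 4.90, 5.74 and 2.79 FPKM in L/Z (WT and cKO at PD 24, then WT and cKO at PD 52) and at 3.91, 3.61, 3.34 and 2.65 FPKM in P. It was lower in P in 4 of 4 pairs, but the stages overlapped because the L/Z library of MFN2 cKO at PD 52 lay among the P libraries. The difference of -0.45 (SE 0.16, 95% interval -0.84 to -0.07) did not pass (limma adjusted p = 0.0776).

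*Mei4* (ENSMUSG00000043289, chr9:81863670-82206007, forward strand) encodes an axis-bound partner of REC114. Its level was at 0.475, 0.657, 0.308 and 0.149 FPKM in L/Z and at 0.180, 0.235, 0.257 and 0.201 FPKM in P, from 9 to 48 reads. Both L/Z libraries at PD 24 were above all others, while the L/Z library of cKO at PD 52 was the lowest. At PD 24 the reads, scaled to the library, were 2.63-fold higher in L/Z than in P in WT and 2.80-fold higher in cKO, with counting intervals (95%, exact binomial, as for all intervals on single pairs) of the log2 P to L/Z ratio of -2.37 to -0.50 and -2.35 to -0.68. At PD 52 both intervals included 0 (-1.29 to 0.76 in WT and -0.95 to 1.85 in cKO), so a difference was not detectable at this depth.

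*Rec114* (ENSMUSG00000074269, chr9:58652850-58743964, reverse strand) encodes a further axis-bound factor. It was at 4.06, 5.69, 3.77 and 1.98 FPKM in L/Z and at 1.82, 3.28, 3.12 and 3.56 FPKM in P. It was lower in P in 3 of 4 pairs and higher in the pair of MFN2 cKO at PD 52. The difference was -0.27 (SE 0.24, 95% interval -0.84 to 0.30, limma adjusted p = 0.429), and it turned to 0.20 when the PD 52 pairs alone were used. Of its exon bases, 26.9% also lie in *Nptn* on the other strand (4.36 to 9.79 FPKM), and the library kit does not keep the strand, so reads from this overlap cannot be told apart.

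*Prdm9* (ENSMUSG00000051977, chr17:15543079-15564354, reverse strand) encodes the methyltransferase that places the breaks. It was at 4.80, 3.22, 2.81 and 0.905 FPKM in L/Z and at 2.21, 1.63, 1.48 and 0.864 FPKM in P. The 3 other L/Z libraries were above every P library, and the L/Z library of MFN2 cKO at PD 52 was near the lowest. *Prdm9* was lower in P in 4 of 4 pairs, by -0.55 (SE 0.18, 95% interval -0.96 to -0.13), which lay just outside the threshold (limma adjusted p = 0.0549). It passed with further scaling of the libraries (adjusted p = 0.0456) and with protein-coding genes only (adjusted p = 0.0332). Of its 3871 sequence windows of 50 bases, 24 also occur in transcripts of other genes.

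*Dmc1* (ENSMUSG00000022429, chr15:79561497-79605109, reverse strand) encodes the meiosis-specific recombinase. It was at 14.6, 17.2, 8.70 and 5.20 FPKM in L/Z and at 7.45, 5.56, 7.68 and 3.59 FPKM in P. Both L/Z libraries at PD 24 stood far above the rest, and the L/Z library of cKO at PD 52 lay among the P libraries. *Dmc1* fell by 0.74 on the log2 scale from L/Z to P (SE 0.23, 95% interval -1.27 to -0.21, limma adjusted p = 0.0476), and it was lower in P in 4 of 4 pairs. The call ended with no FPKM filter (limma adjusted p = 0.126), with an additive fit of stage, genotype and age (0.0693) and with no pair block (0.239). Its scaled reads were 1.95-fold and 3.09-fold higher in L/Z than in P at PD 24 (WT and cKO) and 1.13-fold and 1.45-fold higher at PD 52. The interval of the WT pair at PD 52 included 0 (log2 ratio -0.41 to 0.05).

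*Meiob* (ENSMUSG00000024155, chr17:24804382-24839787, forward strand) and *Spata22* (ENSMUSG00000112920, chr11:73329741-73346044, forward strand) encode partners on single-stranded DNA. *Meiob* was at 6.22, 7.55, 5.02 and 3.86 FPKM in L/Z and at 12.3, 9.56, 8.20 and 5.50 FPKM in P. Every pair was higher in P, and the stages overlapped only because the P library of MFN2 cKO at PD 52 was low. *Meiob* rose by 0.56 from L/Z to P (SE 0.15, 95% interval 0.19 to 0.92, limma adjusted p = 0.0344). Its call ended with no FPKM filter (limma adjusted p = 0.0719) and with no pair block (0.228). *Spata22* was at 1.87, 3.05, 1.78 and 0.322 FPKM in L/Z and at 3.0, 4.73, 4.16 and 3.73 FPKM in P. It too was higher in P in 4 of 4 pairs, and the lowest value rests on 6 reads. *Spata22* rose by 0.93 (SE 0.24, 95% interval 0.36 to 1.5, limma adjusted p = 0.0289), from 0.49 in the PD 24 pairs alone to 1.36 in the PD 52 pairs alone. Its call ended with a pseudocount of 0.1 (limma adjusted p = 0.0511) and with no FPKM filter (0.102). It ended too with the additive fit (0.0633) and with no pair block (0.126). The readthrough gene *Gm49340* on the same strand covers 80.5% of the exon bases of *Spata22* and was at 0.0620 FPKM or less, so the level of *Spata22* is uncertain by how reads were divided between both annotations.

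*Psmc3ip* (ENSMUSG00000019303, chr11:101091823-101095436, reverse strand) encodes HOP2. It was the most abundant of the 9 per length in every library, at 40.8, 52.3, 62.8 and 68.8 FPKM in L/Z and at 58.7, 47.2, 109 and 62.3 FPKM in P. The P library of MFN2 WT at PD 52 was the highest, and otherwise the stages were mixed. The difference was 0.25 (SE 0.21, 95% interval -0.23 to 0.74, limma adjusted p = 0.382). Of its exon bases, 21.2% lie in *Mlx* on the other strand (1.91 to 4.51 FPKM). The gene of its partner MND1, *Mnd1*, chosen after its values were seen, was at 4.96, 11.5, 2.37 and 5.79 FPKM in L/Z and at 2.49, 3.26, 3.28 and 2.52 FPKM in P (difference -0.73, limma adjusted p = 0.0949).

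**Figure D1:**
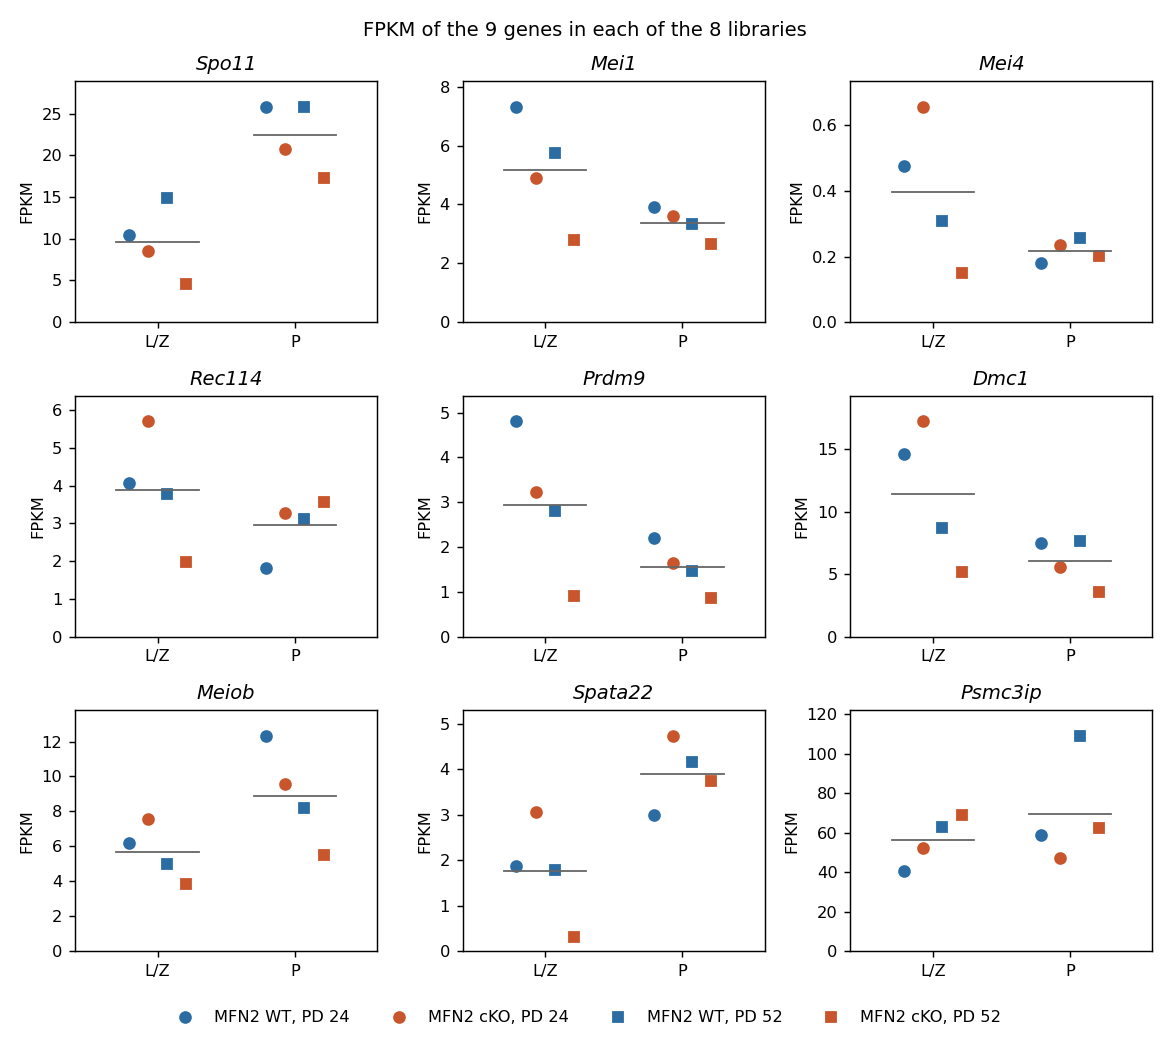
FPKM of each of the 9 genes (vertical axes, linear from 0) in the L/Z and P libraries, with 1 point per library, colour for genotype, shape for age and a grey line for the mean of 4 libraries. *Spo11* is the gene with all P libraries (17.3 to 25.8 FPKM) above all L/Z libraries (4.55 to 14.8 FPKM), and the L/Z library of MFN2 cKO at PD 52 is the lowest L/Z library for all but *Psmc3ip*.

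Ordered by the median over the 8 libraries, the levels per length ran from *Psmc3ip* (60.5 FPKM) over *Spo11* (16.0), *Dmc1* (7.57), *Meiob* (6.88), *Mei1* (3.76), *Rec114* (3.42), *Spata22* (3.02) and *Prdm9* (1.92) to *Mei4* (0.246). The range of *Psmc3ip* overlapped with no other gene of the 9, and that of *Mei4* (up to 0.657 FPKM) only with *Spata22*, whose lowest library was at 0.322 FPKM. All other neighbours in this order had overlapping ranges, such as *Dmc1* (3.59 to 17.2 FPKM) and *Meiob* (3.86 to 12.3 FPKM). Among all genes tested, the median of *Psmc3ip* lay at percentile 95.6 and that of *Prdm9* at percentile 39.7.

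The calls between stages were sensitive to single pairs. No gene of the 8 passed without the pair of MFN2 WT at PD 24 or without the pair of MFN2 cKO at PD 52, and in both cases no gene of the whole table passed. *Spo11* alone passed without the pair of cKO at PD 24 (1 call), and *Spo11* and *Dmc1* passed without the pair of WT at PD 52 (2 calls). The differences of *Spo11* stayed between 1.06 and 1.38 when pairs were left out in turn, those of *Dmc1* between -0.93 and -0.49, those of *Meiob* between 0.45 and 0.64 and those of *Spata22* between 0.62 and 1.08. With the PD 24 pairs alone, which leaves out the L/Z libraries with the highest summed spermatid genes, the differences were 1.21 for *Spo11*, -1.18 for *Dmc1*, -0.77 for *Prdm9*, 0.59 for *Meiob* and 0.49 for *Spata22*. With the PD 52 pairs alone they were 1.24, -0.30, -0.33, 0.52 and 1.36. With 2 pairs no gene of the table passed.

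**Figure D2:**
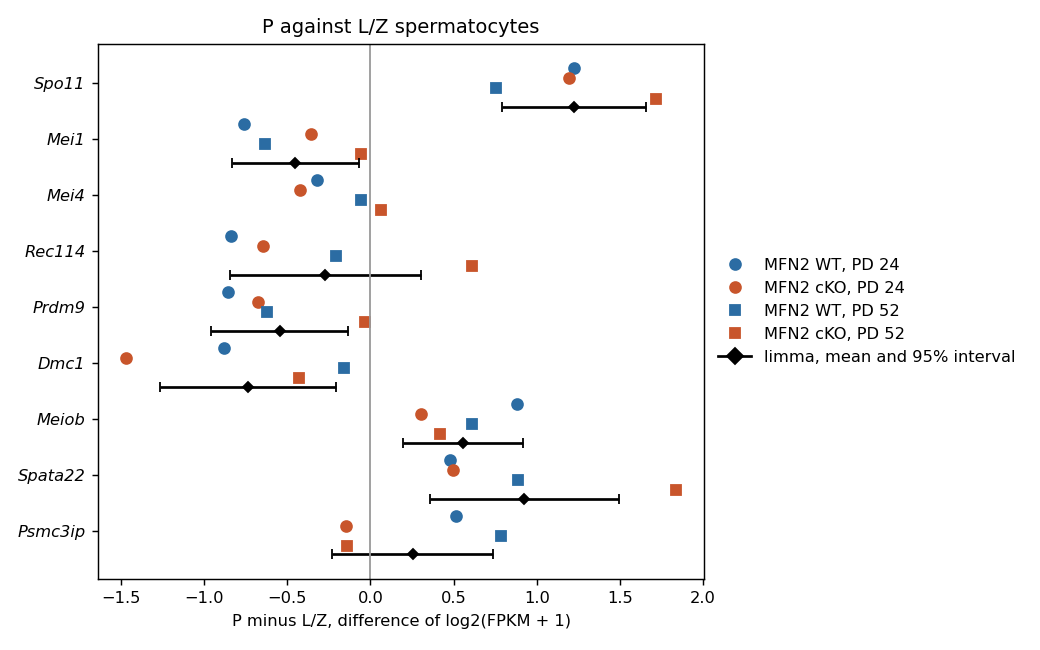
Difference of log2(FPKM + 1) between P and L/Z spermatocytes (horizontal axis) for each gene, with a coloured point for each of the 4 pairs and a black diamond for limma's mean with its 95% interval. *Spo11*, *Meiob* and *Spata22* lie to the right in all 4 pairs, *Mei1*, *Prdm9* and *Dmc1* to the left in all 4, and *Mei4*, which was not tested, has no diamond.

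Ratios between genes of the same library do not depend on how libraries were scaled. The ratio of *Dmc1* to *Spo11* was 1.39, 2.02, 0.587 and 1.14 in the L/Z libraries and 0.289, 0.268, 0.298 and 0.208 in the P libraries (WT and cKO at PD 24, then WT and cKO at PD 52). All L/Z libraries were above all P libraries. The ratio of *Prdm9* to *Spo11* was 0.458, 0.378, 0.189 and 0.199 in L/Z and 0.0856, 0.0788, 0.0573 and 0.050 in P, again with no overlap. The ratio of *Dmc1* to *Meiob* was 1.35 to 2.34 in L/Z and 0.582 to 0.937 in P. In contrast the ratio of *Meiob* to *Spata22* overlapped between the stages, at 2.47 to 12.0 in L/Z and 1.47 to 4.11 in P. The ratio of *Dmc1* to *Psmc3ip* overlapped too, at 0.0755 to 0.357 in L/Z and 0.0576 to 0.127 in P. These ratios were chosen after the levels were seen and are given with no test.

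**Figure D3:**
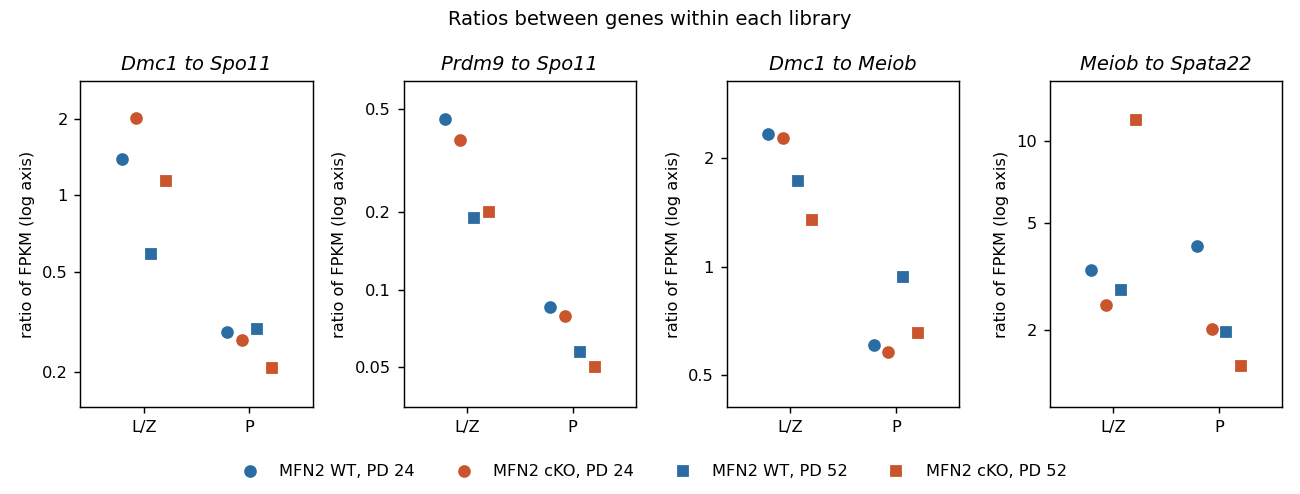
Ratio of the FPKM of 2 genes within each library (vertical axes, logarithmic) in L/Z and P, with 1 point per library, colour for genotype and shape for age. The ratios of *Dmc1* to *Spo11*, *Prdm9* to *Spo11* and *Dmc1* to *Meiob* separate the stages, while *Meiob* to *Spata22* does not.

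Over the 8 libraries, *Mei1*, *Mei4*, *Prdm9* and *Dmc1* ran together (Pearson's r of 0.70 to 0.97 over 6 pairs of genes), and so did *Spo11*, *Meiob* and *Spata22* (0.72 to 0.82 over 3 pairs). Between these sets r was from -0.27 to 0.20. *Rec114* was closer to the first set (0.51 to 0.86) than to the second (-0.12 to 0.33), and *Psmc3ip* had r of -0.56 to 0.25 with the other 8. The sets were drawn up after the values were seen, the points share the same 8 libraries, and *Mei4* rests on few reads, so these are descriptions. By the same measure over 14059 protein-coding genes, the genes most like *Mei1* were *Gm4969* (0.98, the gene of the meiotic initiator MEIOSIN), *Nup210* and *Fn1*. Those most like *Prdm9* were *Rab3gap2*, *Gm4969* and *Myrf*, and those most like *Dmc1* were *Fthl17f*, *Gal3st1* and *Tnip2* (0.98 to 0.99 for these 6). *Gm4969* was at 19.8, 9.25, 10.5 and 3.56 FPKM in L/Z and at 7.55, 5.34, 5.91 and 3.61 FPKM in P. The genes most like *Mei4* were *Syde2*, *Tex11* and *Xlr3c* (0.97 to 0.98), of which *Tex11*, an X-linked meiotic gene, was at 13.6, 20.8, 8.72 and 4.12 FPKM in L/Z and at 3.54 to 6.48 FPKM in P. *Spo11* was most like *Zfp316*, *Cox10* and *Snx27* (0.96 to 0.97), *Meiob* most like *Taf8*, *Hist2h2ac* and *Cep78* (0.98), and *Spata22* most like *Cenpq*, *1810032O08Rik* and *Rnf227* (0.96 to 0.97). *Rec114* was most like *Pspn*, *Kcns1* and *B4galt4* (0.91 to 0.92), and *Psmc3ip* most like *Pih1d1*, *Dap3* and *Dynlt1f* (0.99).

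**Figure D4:**
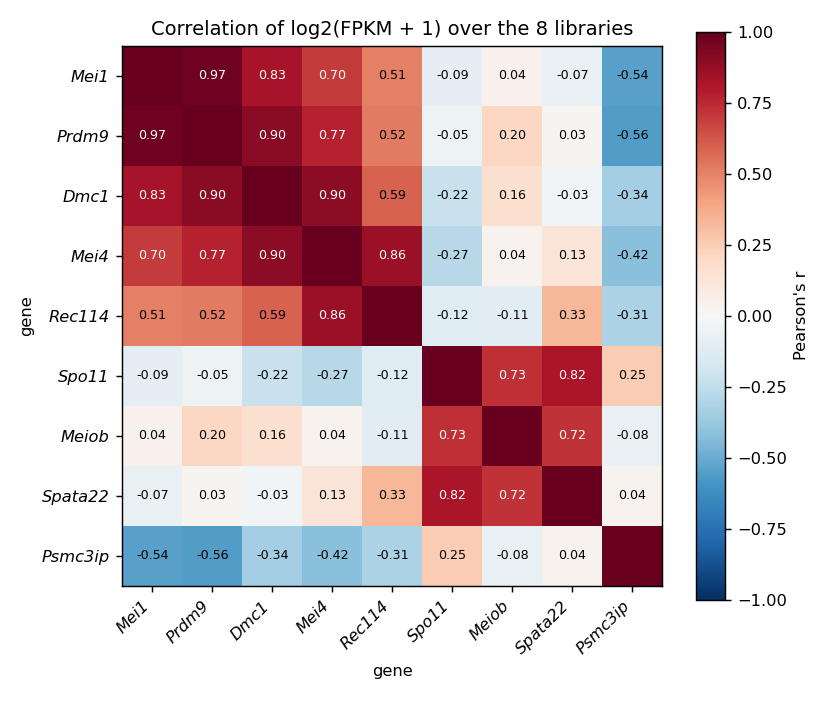
Pearson's r of log2(FPKM + 1) over the 8 libraries for each pair of the 9 genes, printed in each cell and coloured from -1 (blue) to 1 (red). *Mei1*, *Prdm9*, *Dmc1* and *Mei4* form a block of 0.70 to 0.97 and *Spo11*, *Meiob* and *Spata22* a block of 0.72 to 0.82.

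Of 40 other genes of break formation, end processing, strand loading and invasion, all tested, 5 were higher and 3 lower in P than in L/Z, again beside 28.4% of all genes tested. Those of the largest rise were *Fignl1* (1.41, SE 0.15, limma adjusted p = 0.00337), an AAA ATPase, and *Swi5* (1.01, adjusted p = 0.00487), which acts as a complex with SFR1. *Mcmdc2*, an MCM relative of meiosis, rose by 0.96 (adjusted p = 0.00639) and *Xrcc2*, a gene of homologous recombination, by 0.73 (adjusted p = 0.00916). *Fignl1* was at 2.98 to 6.61 FPKM in L/Z and at 12.3 to 17.4 FPKM in P, with no overlap. *Tex15*, needed for meiotic break repair, fell by 1.14 (adjusted p = 0.00637), from 18.5 to 28.1 FPKM in L/Z to 8.47 to 11.8 FPKM in P. *Top6bl* (in the table *Gm960*), which encodes the SPO11 partner TOPOVIBL, fell by 0.51 (adjusted p = 0.0314). *Top6bl* was at 3.87, 3.43, 2.78 and 1.61 FPKM in L/Z and at 2.16, 1.99, 1.67 and 1.04 FPKM in P, so the genes of the partners SPO11 and TOPOVIBL differed between stages in opposite directions.

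Between genotypes none of the 8 genes passed. The common difference of MFN2 cKO and MFN2 WT over the 4 pairs of stage and age gave 0 calls among the 8 in limma, and 0.137% of all genes tested passed. At an unadjusted p under 0.05 there were 3 of the 8, beside 6.93% of all genes tested. No gene of the 9 had all 4 MFN2 cKO libraries on one side of all 4 WT libraries, which was the case for 0.911% of all genes tested. *Prdm9* (-0.54, SE 0.17, adjusted p = 0.544), *Spo11* (-0.66, SE 0.24, adjusted p = 0.636) and *Mei1* (-0.42, SE 0.17, adjusted p = 0.701) were lower in MFN2 cKO in 4 of 4 pairs. These were the same 3 genes with an unadjusted p under 0.05. *Dmc1* was lower in 3 of 4 pairs (-0.43, 95% interval -0.93 to 0.08, adjusted p = 0.762) and higher in the L/Z pair at PD 24, and *Meiob* showed the same directions (-0.22, 95% interval -0.63 to 0.18). *Rec114* (0.12), *Spata22* (-0.05) and *Psmc3ip* (-0.16) had intervals that included 0, and their signs turned when 1 pair was left out. The median of the 8 genes was -0.32, that of the 40 other recombination genes -0.14 and that of all genes tested -0.04. None of the 40 others passed. The values of the largest size among them were 0.52 for *Mnd1* and 0.24 for *Nbn*, an end-binding protein, on the higher side, and -0.41 for *Rpa3*, an RPA subunit, and -0.39 for *Brme1*, a meiotic partner of BRCA2 complexes, on the lower side.

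The single pairs show where the values lay. In the L/Z pair at PD 52, *Spo11* was at 14.8 FPKM in WT and 4.55 FPKM in cKO, 3.26-fold lower in scaled reads, and *Prdm9* at 2.81 and 0.905 FPKM, 3.10-fold lower. Of the 9 genes 8 were lower in cKO in that pair, 6 of them with a counting interval below 0, and *Psmc3ip* was higher by 1.10-fold. The median difference of log2(FPKM + 1) was -0.68 for the 9 genes and 0.02 for all genes above 1 FPKM in that pair. The shares of all genes that were lower or had such an interval were not computed. On the log2(FPKM + 1) scale *Spo11* and *Spata22* changed at least 2-fold there, as did 7.95% of all genes in that pair. On the same scale no gene of the 9 changed 2-fold in the other pairs, where 10.5% (L/Z, PD 24), 8.08% (P, PD 24) and 11.0% (P, PD 52) of all genes did. In the P pair at PD 52 again 8 of the 9 were lower in cKO. In scaled reads *Dmc1* (2.14-fold) and *Psmc3ip* (1.75-fold) were lower by the most. On the log2(FPKM + 1) scale the median of the 9 was -0.41, and that of all genes in that pair -0.05. At PD 24 the genes went both ways, 6 higher in cKO in L/Z and 3 in P. *Mei4* had intervals that included 0 in all 4 pairs. Each pair compares 1 library with 1 other, and the summed spermatid genes also differed in the L/Z pair at PD 52 (11001 FPKM in WT and 20102 FPKM in cKO), and the summed genes of spermatogonia were at 150 FPKM in WT and 73.3 FPKM in cKO. Over the 4 pairs, the summed genes of Leydig cells were higher in cKO each time (36.4 and 206 FPKM in L/Z at PD 24, 19.7 and 139 in P at PD 24, 27.5 and 99.0 in L/Z at PD 52, 255 and 641 in P at PD 52, WT before cKO). Those of macrophages were higher in cKO each time too (34.9 and 110, 17.8 and 39.5, 19.5 and 156, 4.69 and 19.2 FPKM in the same order). The part of these cells in the genotype differences was not tested.

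**Figure D5:**
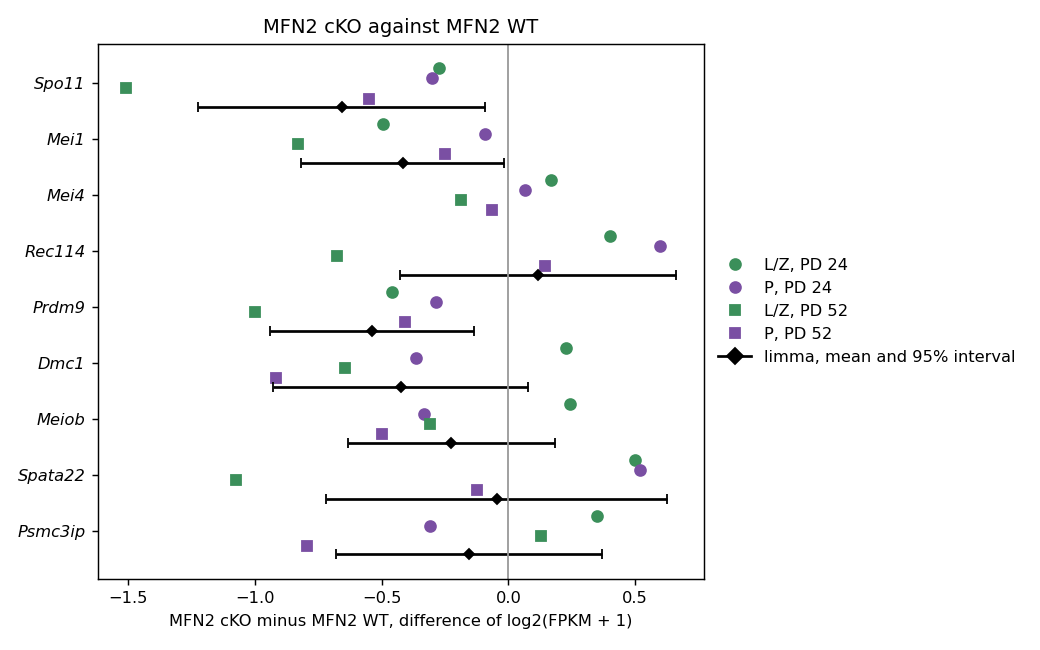
Difference of log2(FPKM + 1) between MFN2 cKO and MFN2 WT (horizontal axis) for each gene, with a coloured point for each of the 4 pairs of stage and age and a black diamond for limma's mean with its 95% interval. *Spo11*, *Mei1* and *Prdm9* lie to the left in all 4 pairs, and the L/Z pair at PD 52 holds the lowest value for 6 of the 9 genes.

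Between ages *Meiob* and *Psmc3ip* passed, 2 of the 8, beside 17.3% of all genes tested. *Meiob* was lower at PD 52 in 4 of 4 pairs (-0.58, SE 0.15, limma adjusted p = 0.0494) and *Psmc3ip* was higher in 4 of 4 (0.57, SE 0.14, adjusted p = 0.0422). All 4 libraries of *Psmc3ip* at PD 52 (62.3 to 109 FPKM) were above all 4 at PD 24 (40.8 to 58.7 FPKM), and 13.4% of all genes tested had no such overlap between ages. *Prdm9* was lower at PD 52 in 4 of 4 pairs and missed the threshold (-0.66, SE 0.18, adjusted p = 0.0516), as did *Mei1* in 4 of 4 (-0.36, SE 0.14, adjusted p = 0.123). *Dmc1* was lower in 3 of 4 pairs (-0.68, SE 0.26, adjusted p = 0.117), with the pair of L/Z in MFN2 cKO at -1.55 and that of P in WT at 0.04. *Spo11* differed by -0.14 (95% interval -0.67 to 0.39) and turned to 0.07 without the L/Z pair of cKO. Neither call remained when any 1 of the 4 pairs was left out (0 calls each time), and in 3 of these 4 cases no gene of the whole table passed. Without the P pair of WT, adjusted p was 0.0701 for *Meiob* and 0.0518 for *Psmc3ip*, with 18.6% of all genes passing. The call of *Psmc3ip* ended with the additive fit of stage, genotype and age (adjusted p = 0.0835), where *Prdm9* passed (adjusted p = 0.0381), and that of *Meiob* ended with a pseudocount of 0.1 (adjusted p = 0.0551). The median of the 8 genes was -0.38 and that of the 40 others -0.27, against 0.00 for all genes tested. Of the 40 others 33 were below 0 and 1 passed, *Spidr*, a scaffold protein of DNA repair (-0.57, adjusted p = 0.0418).

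The tests of whether a difference depended on another factor passed for none of the 8 genes. For the stage difference between ages 0 of all genes tested passed (0% of 21175), and for the stage difference between genotypes likewise 0 (0%), while for the genotype difference between ages 1 did (0.00472%). At an unadjusted p under 0.05, limma gave 0, 1 and 0 of the 8 genes and 5.02%, 4.03% and 9.11% of all genes. The 1 gene was *Psmc3ip* (P minus L/Z in cKO minus that in WT, -0.79, SE 0.28, unadjusted p = 0.0293, adjusted p = 0.979). For *Dmc1* the stage difference at PD 52 minus that at PD 24 was 0.88 (95% interval -0.13 to 1.89, adjusted p = 0.846), and for *Rec114* it was 0.94 (95% interval -0.15 to 2.03, adjusted p = 0.846). For *Spo11* it was 0.03, with an interval from -1.10 to 1.16. In all 8 genes the difference of cKO and WT was lower at PD 52 than at PD 24, by a median of -0.54 against 0.02 for all genes, and none passed. Among the 40 others the largest values for the same term were -1.51 for *Rpa2* (adjusted p = 0.374) and -1.46 for *Rpa3* (adjusted p = 0.431), both RPA subunits, and on the higher side 0.46 for *Brme1* and 0.32 for *Tex15*. For the stage difference between ages they were 1.11 for *Rpa3*, 1.05 for *Rpa2*, -0.40 for *Ankrd31* and -0.36 for *Xrcc3*. For the stage difference between genotypes they were 0.78 for *Atm*, 0.65 for *Brca2*, -1.04 for *Mnd1* and -0.38 for *Sfr1*.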

How the data were processed

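The authors sequenced paired-end libraries made from total RNA with a kit that does not keep strand, computed FPKM per gene with Novomagic and deposited one FPKM table with gene lengths. The submitters' processing notes name CASAVA 1.4, Bowtie 0.12.2 and the builds mm8 and mm9, while the table's coordinates equal those of GRCm38 (GENCODE M21) for 8 of the 9 genes. FPKM multiplied by gene length gave whole multiples of 1 step per library (100% of values under 200 reads, tolerance 0.01), which are the reads.

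Genes with FPKM above 1 in at least 1 library were tested on log2(FPKM + 1) with limma 3.58.1 (R 4.3.3, eBayes with trend, two-sided, pair as block, Benjamini-Hochberg over all genes tested). The pseudocount of 1 understates changes of low genes. Each group is 1 library, and L/Z and P of one genotype and age may share mice, so p-values measure only the spread between these libraries. Intervals on single pairs are exact binomial (Clopper-Pearson, 95%) and cover counting error only. The fits were tested on simulated data.

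The genes and lists were chosen with earlier results of these data known. Named were the 9 genes, of the 40 others up to 4 called per direction with the largest difference (the 2 largest where none passed), the 3 protein-coding genes most correlated with each, *Mfn2* and marker genes. *Mnd1* between stages was added after its values were seen, and 1 gene that fell between stages is not reported here. Other settings tried were a smaller pseudocount (0.1), keeping all genes whatever their FPKM, rescaling by median of ratios, testing coding genes alone, an additive model or one with all two-way terms, dropping the block, and leaving out pairs. The deposited values already carried factors of the median of ratios. The further scaling (factors 0.959 to 1.07) repeats that kind of scaling and cannot show how the results depend on it. Scaling to the total of reads on genes was not tried, so its effect on the differences between ages, stages and genotypes was not tested.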

Additional observations from a re-analysis of the deposited data

Results flagged for a closer look

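For 3 genes every pair of one level went one way and every pair of the other level the opposite way. *Psmc3ip* was higher in P than in L/Z in both MFN2 WT pairs (0.51 and 0.79 on the log2(FPKM + 1) scale) and lower in both MFN2 cKO pairs (-0.14 and -0.14), a difference of -0.79 between genotypes. Seen the other way round, it was higher in cKO in both L/Z pairs (0.35 and 0.13) and lower in both P pairs (-0.31 and -0.80), which is the same value of -0.79. The interaction term in limma did not pass (adjusted p = 0.979). *Spata22* was higher in cKO in both pairs at PD 24 (0.50 and 0.52) and lower in both at PD 52 (-1.07 in L/Z and -0.12 in P), a difference of -1.11 (limma adjusted p = 0.555), and its value in the L/Z library of cKO at PD 52 rests on 6 reads. *Mei4* was higher in cKO in both pairs at PD 24 (0.17 and 0.07) and lower in both at PD 52 (-0.19 and -0.07), a difference of -0.24 that was not tested because the gene was below the FPKM filter. Its counting intervals included 0 in all 4 pairs.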

How the results depend on the processing

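Against 4 calls between stages, there were 3 with a pseudocount of 0.1, 5 with further scaling and 5 with coding genes only, but 1 with no FPKM filter, 2 with the additive fit and 0 with no pair block, with the PD 24 pairs only and with the PD 52 pairs only, and 0 to 2 when pairs were left out in turn. Against 2 calls between ages, there was 1 with a pseudocount of 0.1, 3 with coding genes only, 2 with further scaling, 2 with the additive fit (not the same 2), 0 with no FPKM filter, 0 with no pair block and 0 when any pair was left out. Between stages only *Spo11* passed with no FPKM filter, and only *Spo11* and *Meiob* with the additive fit. The cause of these changes was not tested. Counts for genotype and the interaction terms were 0 under every alternative run. Over all genes, calls between stages fell from 6013 to 3010 with no filter and 1145 with no block, those between ages from 3669 to 791 and 1, and those between genotypes (29) ranged from 0 to 71. For the genotype difference between ages, 1 call became 54 with a pseudocount of 0.1 and 265 with all two-way terms.

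Directions turned only in differences that had not passed. With subsets of pairs these were *Rec114* between stages (0.20, PD 52 pairs only) and, between genotypes, *Spata22* (0.20, P pairs only), *Rec114* (-0.14, L/Z pairs only) and *Psmc3ip* (0.24, L/Z pairs only). With pairs left out in turn, the genotype difference ranged from -0.043 to 0.38 for *Rec114*, -0.23 to 0.30 for *Spata22* and -0.32 to 0.058 for *Psmc3ip*, and the age difference from -0.34 to 0.069 for *Spo11*, -0.39 to 0.18 for *Rec114* and -0.65 to 0.016 for *Spata22*. Of 272 alternative values of single genes, 213 kept their direction and side of the threshold. Without the filter *Mei4* differed by -0.19 between stages (limma adjusted p = 0.347). No paired analysis by replicate number was possible because each group has 1 library.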
